A study of Homo sapiens with 16 samples.

Results

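RNA-seq libraries of Molm14 cells treated with an inhibitor of the histone methyltransferase DOT1L were compared with libraries of cells given the solvent DMSO. The comparison took the 4 libraries labelled iDOT1L and the 4 labelled DMSO, 8 of the 16 libraries of the series, and covered every gene of the processed table. Molm14 is an acute myeloid leukaemia line with a rearrangement of KMT2A. Cells of the iDOT1L group received EPZ5676 at 0.16 uM, alone, for 7 days by the design text. The extraction text instead places RNA isolation 3 days after a sort that the design text does not mention, and this difference could not be settled. The DMSO group received no inhibitor, and medium and compound were renewed on day 4. The remaining 8 libraries came from cells given 0.3 uM GSK126, an inhibitor of EZH2 (iEZH2, 4 libraries) or 0.16 uM EPZ5676 together with 0.3 uM GSK126 (Combo, 4 libraries). One established cell line, one dose and one time point were studied, and nothing in the labels tells if a group's 4 replicates came from separate cultures. The p-values therefore measure only the spread between these samples, which may be technical. In such bulk libraries fewer cells of one kind and less RNA per cell cannot be told apart.

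DOT1L is the enzyme that methylates lysine 79 of histone H3, a mark found along the bodies of actively transcribed genes. In leukaemias with a KMT2A rearrangement the fusion protein can bring DOT1L to its target genes, among them HOXA genes and MEIS1, whose products help keep blood progenitors from maturing. EPZ5676, also known as pinometostat, occupies the site of DOT1L that binds the methyl donor. It blocks the enzyme's activity and does not remove its transcript.

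The labelled cell type was checked first. CD33, a surface antigen of myeloid cells, had 726, 755, 755 and 795 normalised counts in the DMSO libraries and 758, 772, 719 and 799 in the iDOT1L libraries. A normalised count is the number of reads of a gene after the scaling between libraries that the authors applied. DOT1L itself (ENSG00000104885) had 6731, 6946, 6744 and 6761 in DMSO and 5783, 7721, 6461 and 6035 in iDOT1L (log2 difference -0.07, SE 0.12, adjusted p = 0.814). The groups overlapped for both genes, and the transcript of the drug's target did not pass the test. Read totals estimated from the smallest steps between values were 20.6 to 25.5 M (mega-reads) in the 8 libraries.

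Of 22331 genes tested, 687 were higher and 709 lower in iDOT1L than in DMSO at a Benjamini-Hochberg adjusted p under 0.05 (limma), which is 3.08% and 3.17% of all genes tested, or 6.25% in both directions. Genes that met this threshold are said to have risen, fallen or been called. The median log2 difference was 0.81 among the 687 genes that rose and -0.65 among the 709 that fell, against 0.01 over all genes tested. At least a 2-fold difference was reached by 280 of the genes that rose and 186 of those that fell, and at least a 4-fold difference by 67 and 33. The 4 iDOT1L libraries lay entirely above or below the 4 DMSO libraries for 652 of the genes that rose and 663 of those that fell. Such a separation of the groups was found for 12.5% of all genes tested. With the replicate number as a block in the fit of all 16 libraries, 1270 genes (5.69%) were higher and 1459 (6.53%) lower. Those calls held 686 of the 687 and 709 of the 709 genes. The block takes same-numbered libraries of all 4 groups as belonging together. Correlations between libraries did not show this for replicates 3 and 4, and Combo and iEZH2 libraries were not taken as paired. Leaving out iDOT1L replicate 3 reduced the total from 1396 to 915 called genes, 466 higher and 449 lower.

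**Figure D1:**
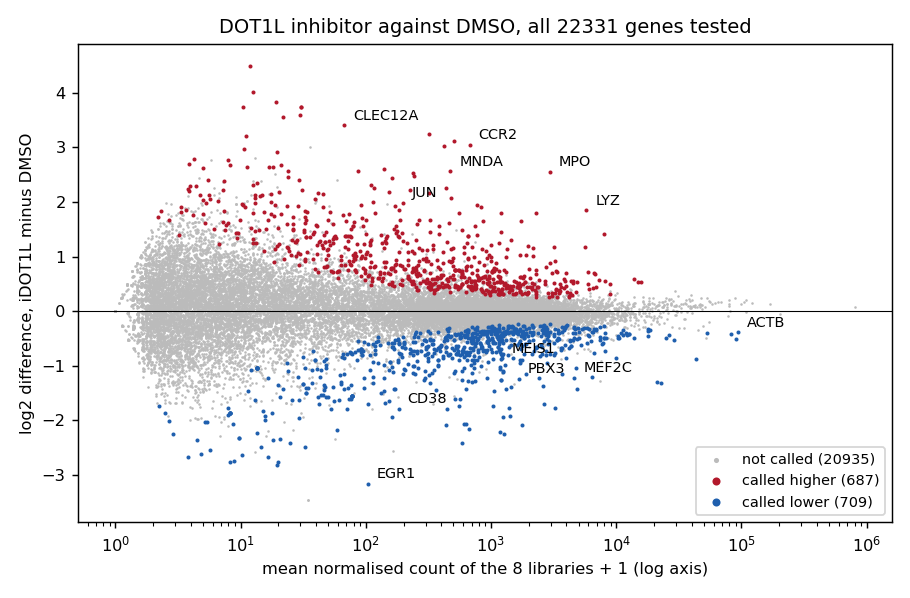
Log2 difference between iDOT1L and DMSO (vertical axis) against the mean normalised count of the 8 libraries plus 1 (horizontal axis, logarithmic) for all 22331 genes tested, with 687 genes that rose in red and 709 that fell in blue. MPO and LYZ rose at high levels, EGR1 had one of the largest falls, and MEIS1, PBX3 and MEF2C lay among the genes that fell at levels of about 1000 normalised counts or more.

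Of 44 genes listed as KMT2A fusion targets, 20 fell (45.5%, against 3.17% of all genes tested). Of the rest 1 rose (2.27%, against 3.08%) and 23 were not called. This list and those below were written with earlier results of these data known, so their shares are descriptions and not independent checks. Of the 44, 14 lay above 0, with a median log2 difference of -0.41. MEIS1, a homeobox partner of HOXA9 (ENSG00000143995), had 1684, 1401, 1585 and 1658 normalised counts in the DMSO libraries and 928, 702, 879 and 985 in the iDOT1L libraries. No iDOT1L library reached the lowest DMSO library (log2 difference -0.86, SE 0.13, adjusted p = 0.000379). PBX3, which binds DNA together with MEIS1 and HOXA9 (ENSG00000167081), went from 2458, 2188, 2281 and 2382 in DMSO to 1244, 820.4, 867 and 1065 in iDOT1L. Again the groups did not overlap (log2 difference -1.24, SE 0.14, adjusted p = 2.06e-05). MEF2C, a MADS-box transcription factor of early blood cells (ENSG00000081189), had 6827, 6082, 6439.9 and 6378 in DMSO and 3933, 2414, 2507 and 2468 in iDOT1L. The first iDOT1L library stood above the other 3 and still below every DMSO library (log2 difference -1.21, SE 0.17, adjusted p = 0.000238).

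Further targets fell, and DACH1, UBASH3B, HMGA2 and SOCS2 did so by more than MEIS1. DACH1, a transcriptional co-regulator, had 5067, 5139.6, 4892 and 4857 normalised counts in DMSO and 1583, 1468, 1326 and 1484 in iDOT1L (log2 difference -1.77, SE 0.14, adjusted p = 6.60e-07). UBASH3B, a tyrosine phosphatase, had 2520.1, 2303, 2015 and 2076 in DMSO and 824, 507, 481 and 583 in iDOT1L (log2 difference -1.92, SE 0.22, adjusted p = 2.72e-05). HMGA2, an architectural chromatin protein, had 845, 651, 822 and 774 in DMSO and 289, 239, 264 and 218 in iDOT1L (log2 difference -1.61, SE 0.16, adjusted p = 7.43e-06). In each of these genes the highest iDOT1L library was under the lowest DMSO library by a wide margin. SOCS2, a feedback inhibitor of cytokine signalling, fell by 1.14 on the log2 scale (adjusted p = 1.29e-05). The RNA-binding protein gene IGF2BP2 (-0.60, adjusted p = 0.00137) and the histone demethylase family gene JMJD1C (-0.77, adjusted p = 0.000801) also fell.

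FLT3, the receptor tyrosine kinase of early progenitors, had 10902, 8234, 9145 and 8689 normalised counts in DMSO and 8122, 5149, 5553 and 5733 in iDOT1L (log2 difference -0.61, SE 0.14, adjusted p = 0.0105). Its groups did not overlap, though the highest iDOT1L library lay just under the lowest DMSO library. CDK6, a kinase that drives entry into S phase, had 11121, 12202, 8637 and 8740.3 in DMSO and 6890.4, 7504, 5393 and 4915 in iDOT1L (log2 difference -0.73, SE 0.21, adjusted p = 0.0496). Its call rested on a narrow margin and was lost without DMSO replicate 1, 2, 3 or 4 or iDOT1L replicate 1, 3 or 4 (adjusted p 0.0601 to 0.142). With the block its adjusted p was 0.000172. The chromatin organiser SATB1 fell by 0.46 on the log2 scale (adjusted p = 0.0408), a call that was lost without DMSO replicate 1, 2, 3 or 4 or iDOT1L replicate 3 or 4 (adjusted p 0.0559 to 0.143).

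Not every listed target fell. LAMP5, a lysosomal membrane protein that is much used as a marker of KMT2A-rearranged leukaemia, rose from 1516, 1832, 1671 and 1767 normalised counts in DMSO to 2397, 2922, 2986 and 3130.3 in iDOT1L (log2 difference 0.75, SE 0.11, adjusted p = 0.000179). ZEB2 (log2 difference -0.09), RUNX2 (-0.14) and GFI1 (0.00), transcription factors of blood cells, were not called, with overlapping groups and adjusted p values of 0.618, 0.421 and 0.994. The summed level of the 44 genes was 130362 to 145540 normalised counts in DMSO and 97240 to 111323 in iDOT1L.

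**Figure D2:**
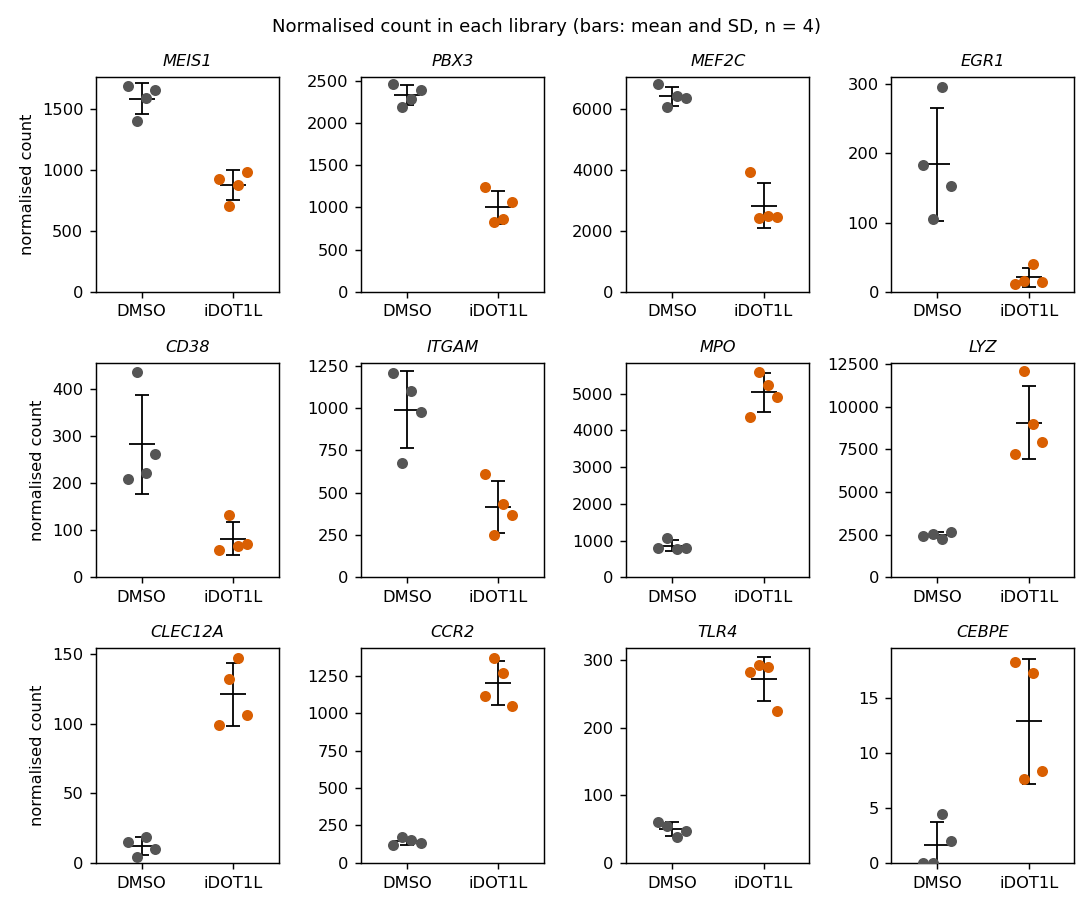
Normalised count of 12 genes in each of the 4 DMSO and 4 iDOT1L libraries (points, linear axis from 0), with the mean and SD. In all 12 genes the points of the 2 groups do not overlap: MEIS1, PBX3, MEF2C, EGR1, CD38 and ITGAM are lower and the other 6 are higher in iDOT1L.

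Along the HOXA cluster on chromosome 7 the differences were uneven. HOXA genes encode the homeobox transcription factors that lie in a row and are transcribed in many KMT2A-rearranged leukaemias. HOXA3 fell from 539, 383, 389.8 and 297 normalised counts in DMSO to 291, 175, 157 and 142 in iDOT1L (log2 difference -1.10, SE 0.22, adjusted p = 0.00455). HOXA5 fell from 328, 297, 359.6 and 293 in DMSO to 189, 125, 152 and 172 in iDOT1L (log2 difference -1.01, SE 0.18, adjusted p = 0.00193). HOXA13, at the far end of the cluster, fell from 2189, 2069.6, 2166.3 and 2123 in DMSO to 1491, 1323, 1270.4 and 1404 in iDOT1L (log2 difference -0.64, SE 0.10, adjusted p = 0.000306), and its DMSO and iDOT1L libraries were each tightly grouped.

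HOXA9 (ENSG00000078399), the member with the best known part in leukaemia, had 1789, 1451, 1577 and 1582 normalised counts in DMSO and 1318, 1286, 1238 and 1330.2 in iDOT1L. The groups did not overlap, and the difference missed the threshold (log2 difference -0.30, SE 0.09, adjusted p = 0.0521). With the block it passed (adjusted p = 0.00623). HOXA2 (-0.86, adjusted p = 0.0504) and HOXA6 (-0.85, adjusted p = 0.0566) likewise passed with the block (adjusted p = 0.0188 and 0.0188).

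HOXA10 fell by 0.43 on the log2 scale (adjusted p = 0.0211) and HOXA7 by 0.38 (adjusted p = 0.0399). The HOXA10 call was lost without DMSO replicate 1, 3 or 4 or iDOT1L replicate 2 or 3 (adjusted p 0.0503 to 0.0747), and the HOXA7 call without DMSO replicate 1, 2 or 3 or iDOT1L replicate 1, 2, 3 or 4 (adjusted p 0.0549 to 0.129). HOXA11 (-0.57, adjusted p = 0.00824) and HOXA4 (-1.63, adjusted p = 0.00202) were called as well. In HOXA4, HOXA6, HOXA7, HOXA9, HOXA10 and HOXA11, between 24.3% and 62.2% of the 31-base words of their transcripts also occur in other genes, so reads may be divided between genes and their levels are uncertain.

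**Figure D3:**
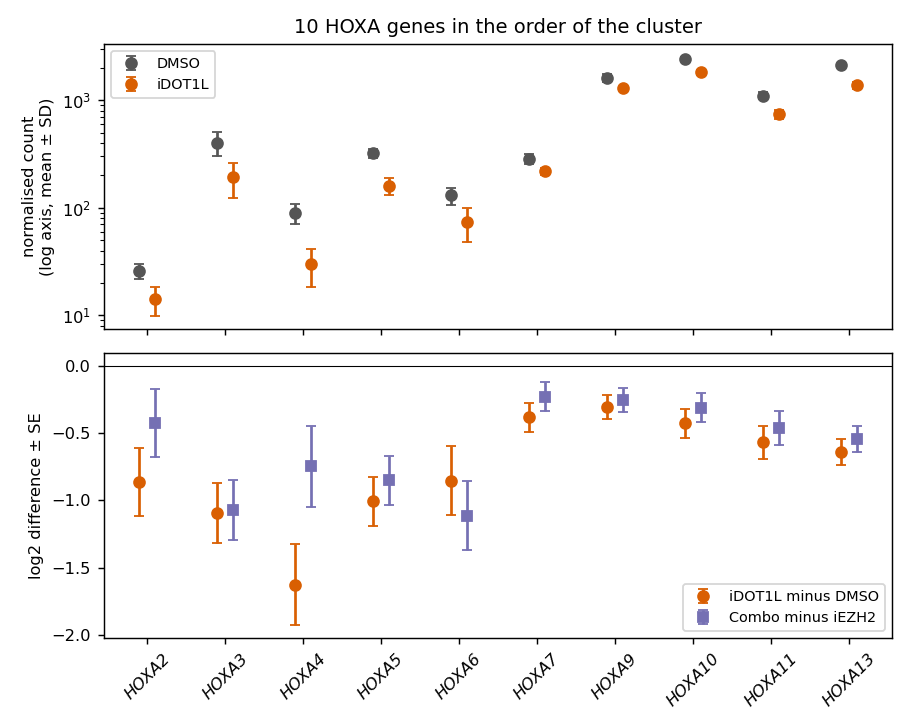
The HOXA genes described, in the order of the cluster, with the mean ± SD of normalised counts in DMSO and iDOT1L on a logarithmic axis (above) and the log2 difference ± SE of iDOT1L minus DMSO and of Combo minus iEZH2 (below). Every gene shown lies under 0 in both comparisons, and HOXA7 and HOXA9 lie closest to 0 in iDOT1L minus DMSO.

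Of 28 genes for DOT1L, its complex and the elongation factors around it, 1 rose and 1 fell (3.57% each, near the 3.08% and 3.17% of all genes tested), and their summed level was 55357 to 65513 in DMSO and 54276 to 64577 in iDOT1L. AFF3, a member of the AF4 family of elongation scaffolds, rose from 1695, 1467, 1263 and 972 normalised counts in DMSO to 3415, 3298, 2784 and 2424 in iDOT1L (log2 difference 1.16, SE 0.17, adjusted p = 0.000281). MLLT10, also known as AF10, a cofactor that DOT1L needs for its full activity, fell by 0.32 on the log2 scale (adjusted p = 0.0382). That call was lost without DMSO replicate 1, 2 or 4 or iDOT1L replicate 2, 3 or 4 (adjusted p 0.0684 to 0.117).

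Large falls were found outside those lists as well. EGR1, an early response transcription factor of growth factor signalling (ENSG00000120738), had 183, 105, 296 and 153 in DMSO and 11.5, 16.1, 40.8 and 14.6 in iDOT1L (log2 difference -3.16, SE 0.41, adjusted p = 8.14e-05). The third library was the highest in both groups, and every iDOT1L library was far below every DMSO library. MYBPH, a myosin-binding protein, had 793, 940.4, 1106 and 1124 in DMSO and 175, 201, 186 and 175 in iDOT1L (log2 difference -2.41, SE 0.17, adjusted p = 1.99e-07). DLX5, a homeobox gene of bone and brain development, had 1106, 921, 1176 and 1159 in DMSO and 232, 236, 219 and 282 in iDOT1L (log2 difference -2.16, SE 0.15, adjusted p = 1.99e-07). NR2F1, an orphan nuclear receptor, had 1773, 1828, 2171 and 2066 in DMSO and 503, 545, 513 and 471 in iDOT1L (log2 difference -1.94, SE 0.15, adjusted p = 6.60e-07). The 4 iDOT1L libraries of these last 3 genes differed little from each other and were all far below DMSO.

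ALDH1A3, which makes retinoic acid, fell from 2021, 2026, 1911 and 1843 normalised counts in DMSO to 530.5, 376, 372 and 428 in iDOT1L (log2 difference -2.20, SE 0.18, adjusted p = 6.60e-07), and 26.1% of its 31-base words occur in other genes. NCAM2, a neural cell adhesion molecule, fell by 2.09 on the log2 scale (adjusted p = 1.77e-05). HRC, a calcium-binding protein of the sarcoplasmic reticulum, fell by 2.49 at a low level (mean and SD 53.7 ± 18.5 to 9.28 ± 5.15, n = 4, adjusted p = 0.000849). IL31RA, a cytokine receptor subunit, fell by 1.79 (adjusted p = 0.000493). The ectoenzyme CD38 (ENSG00000004468), a surface antigen of progenitor and plasma cells, had 209, 435, 221 and 261 in DMSO and 57.7, 133, 67.0 and 70.0 in iDOT1L (log2 difference -1.78, SE 0.38, adjusted p = 0.00889). Its second library was the highest in both groups, and the groups did not overlap.

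Several of the largest rises exceeded 4-fold. CLEC12A, an inhibitory receptor of granulocytes and monocytes (ENSG00000172322), had 15.1, 3.95, 18.7 and 9.77 in DMSO and 98.8, 132, 147 and 106 in iDOT1L (log2 difference 3.40, SE 0.43, adjusted p = 6.36e-05). CCR2, the chemokine receptor that brings monocytes out of the marrow (ENSG00000121807), had 119, 175, 153 and 132 in DMSO and 1115, 1371, 1270.3 and 1047 in iDOT1L (log2 difference 3.05, SE 0.25, adjusted p = 1.58e-06). MNDA, a nuclear antigen of myeloid cells, had 107, 166, 136 and 127 in DMSO and 544, 1013, 881 and 795 in iDOT1L (log2 difference 2.56, SE 0.21, adjusted p = 1.58e-06). In each of the 3 genes every iDOT1L library was several times above every DMSO library.

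CCNA1, a cyclin expressed in testis and in myeloid leukaemia, rose from 109, 88.3, 107 and 113 normalised counts in DMSO to 848, 919, 938 and 922 in iDOT1L (log2 difference 3.11, SE 0.34, adjusted p = 3.74e-05). PKIB, an inhibitor of protein kinase A, had 101, 59.0, 109.8 and 93.8 in DMSO and 951, 489.7, 762 and 800.0 in iDOT1L (log2 difference 3.03, SE 0.41, adjusted p = 0.000337). SLPI, a secreted inhibitor of leukocyte proteases, had 34.2, 47.2, 32.8 and 39.0 in DMSO and 187, 276, 254 and 229 in iDOT1L (log2 difference 2.60, SE 0.29, adjusted p = 1.92e-05). All 3 rose in every library, and the 4 iDOT1L libraries of CCNA1 lay within a narrow range. MEGF6 (3.24, adjusted p = 0.000184), the histidine-degrading enzyme HAL (2.52, adjusted p = 0.00297) and GAPT, an adaptor protein of blood cells (2.48, adjusted p = 1.44e-05), followed. MGAM2 and GPR141, an orphan receptor, were near the detection limit in DMSO and had mean normalised counts of 3.36 ± 1.36 to 55.6 ± 11.2 and 4.4 ± 4.22 to 53.01 ± 12.2 in DMSO and iDOT1L (SD, n = 4). KLHL4 rose by 2.57 on the log2 scale (adjusted p = 2.03e-05).

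Primary granule genes split. The enzymes and proteins of these granules, made at the promyelocyte stage, numbered 19 tested genes. Of these 6 rose (31.6%, against 3.08% of all genes tested), 4 fell (21.1%, against 3.17%) and 9 were not called. The median log2 difference was 0.10. Myeloperoxidase, MPO (ENSG00000005381), had 803, 1078, 781 and 788 normalised counts in DMSO and 4374, 5597, 5237 and 4914 in iDOT1L (log2 difference 2.55, SE 0.23, adjusted p = 7.43e-06). Lysozyme, LYZ (ENSG00000090382), had 2448, 2538, 2225 and 2640.3 in DMSO and 7212, 12082, 8975 and 7933 in iDOT1L (log2 difference 1.85, SE 0.22, adjusted p = 6.79e-05), and 39.3% of its 31-base words occur in other genes. MS4A3, a membrane protein of granulocyte and monocyte progenitors, had 48.7, 73.3, 41.4 and 55.7 in DMSO and 181, 299, 306 and 220.2 in iDOT1L (log2 difference 2.18, SE 0.25, adjusted p = 2.03e-05). The groups were far apart in each of these. PRSS57, a serine protease, rose by 0.46 (adjusted p = 0.000285) and CST7, a cysteine protease inhibitor, by 0.53 (adjusted p = 0.0035).

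Of the serine protease family, 3 neighbouring genes on chromosome 19 went the other way or were not called. AZU1, azurocidin, fell from 13333, 13365, 15598 and 15771 normalised counts in DMSO to 9395, 10626, 11683 and 12066 in iDOT1L (log2 difference -0.41, SE 0.09, adjusted p = 0.007). ELANE, neutrophil elastase, fell by 0.49 on the log2 scale (adjusted p = 0.0387) with overlapping groups, and the call was lost without DMSO replicate 2, 3 or 4 or iDOT1L replicate 1, 3 or 4 (adjusted p 0.0653 to 0.122). PRTN3, proteinase 3, had a log2 difference of -0.43 (adjusted p = 0.124) and passed only with the block (adjusted p = 0.00282). CTSG, cathepsin G, fell by 0.40 (adjusted p = 0.0266), a call that was lost without DMSO replicate 2, 3 or 4 or iDOT1L replicate 1, 2 or 3 (adjusted p 0.0507 to 0.0916). SRGN, the proteoglycan that packs granule proteins, fell by 0.45 (adjusted p = 0.00727). Without DMSO replicate 2, 3 or 4 or iDOT1L replicate 1 or 3, only 2 of the 19 genes were called lower. Of 11 secondary granule genes, which are made later in neutrophil maturation, SLPI alone was called, and it rose (9.09%, against 3.08% of all genes tested). Without iDOT1L replicate 4, 2 rose, and without iDOT1L replicate 1, 1 fell.

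Monocyte and macrophage markers rose more often than they fell. Of 46 tested, 13 rose (28.3%, against 3.08% of all genes tested) and 3 fell (6.52%, against 3.17%), with a median log2 difference of 0.38. The summed level of the list was 18330 to 25991 normalised counts in DMSO and 22276 to 35525 in iDOT1L, with overlapping groups. Between libraries of the same number the sum was higher in iDOT1L, at 35525 against 25991, 22276 against 18330, 27703 against 25413 and 27222 against 24915. Correlations between libraries did not show this pairing for replicates 3 and 4. TLR4, the receptor for bacterial lipopolysaccharide, had 60.1, 54.9, 37.8 and 47.0 in DMSO and 282, 292, 289 and 224.2 in iDOT1L (log2 difference 2.43, SE 0.25, adjusted p = 7.84e-06). MS4A6A, a membrane protein of monocytes, had 380.5, 380.5, 451 and 522 in DMSO and 916, 922, 951 and 1088 in iDOT1L (log2 difference 1.17, SE 0.13, adjusted p = 1.89e-05). TLR2, the receptor for bacterial lipoproteins, had 617, 475, 528 and 506 in DMSO and 1318, 1070.0, 1176 and 1095 in iDOT1L (log2 difference 1.13, SE 0.13, adjusted p = 2.62e-05). Each rose in all 4 libraries. CX3CR1, the fractalkine receptor of patrolling monocytes, rose by 0.77 on the log2 scale (adjusted p = 0.00923).

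Integrin chains that define monocytes fell. ITGAM (ENSG00000169896), the CD11b chain, had 1208, 678, 1098 and 979 normalised counts in DMSO and 609, 248, 436 and 369 in iDOT1L (log2 difference -1.29, SE 0.34, adjusted p = 0.0311). The second library was the lowest in both groups, and the groups did not overlap. The call was lost without DMSO replicate 1, 3 or 4 or iDOT1L replicate 2, 3 or 4 (adjusted p 0.0642 to 0.0954), and with the block the adjusted p was 1.70e-05. ITGAX, the CD11c chain, fell by 1.13 on the log2 scale (adjusted p = 0.0254) with overlapping groups, and the call was lost without DMSO replicate 1, 3 or 4 or iDOT1L replicate 2 or 3 (adjusted p 0.0739 to 0.0925). CD68, a macrophage scavenger receptor, fell by 0.72 (adjusted p = 0.0414), was lost without DMSO replicate 1, 3 or 4 or iDOT1L replicate 2, 3 or 4 (adjusted p 0.0822 to 0.134), and shares 81.2% of its 31-base words with other genes.

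The receptor of macrophage colony-stimulating factor, CSF1R, had 536, 287, 504 and 405 normalised counts in DMSO and 1419, 687, 1053 and 1028 in iDOT1L. The groups did not overlap, and the difference missed the threshold (log2 difference 1.27, SE 0.37, adjusted p = 0.0563) and passed with the block (adjusted p = 0.00481). KIT, the stem cell factor receptor, had 66.5, 12.9, 29.1 and 25.9 in DMSO and 96.3, 57.1, 72.0 and 59.3 in iDOT1L, with overlapping groups (adjusted p = 0.0685, or 0.0147 with the block). CD14, the lipopolysaccharide co-receptor of monocytes, stayed at 1.46 to 6.92 normalised counts in all 8 libraries (log2 difference 0.23, adjusted p = 0.896).

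Some innate immune receptors rose. Of 32 Toll-like receptor and adaptor genes 4 rose (12.5%, against 3.08% of all genes tested). The summed level of the list was 23004 to 23631 in DMSO and 24205 to 24812 in iDOT1L, with no overlap. Of 21 C-type lectin receptors 3 rose (14.3%), CLEC12A, CLEC12B and CLEC1B, which are neighbours on chromosome 12. CLEC12B had 0 or under 2 normalised counts in each DMSO library and 16.1, 27.4, 14.8 and 15.1 in the iDOT1L libraries (adjusted p = 0.000111). At such low levels a log2 difference depends on the pseudocount of 1 that was added, and none is given. The call of CLEC1B (adjusted p = 0.0275) was lost without DMSO replicate 1, 3 or 4 or iDOT1L replicate 2 or 3 (adjusted p 0.0563 to 0.12).

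Among 35 haematopoietic cytokine receptors 8 rose (22.9%, against 3.08% of all genes tested) and 1, FLT3, fell (2.86%, near the 3.17% of all genes tested). IL7R, a receptor of lymphoid and monocytic cells, had 173, 77.7, 224.6 and 154 normalised counts in DMSO and 685, 736, 729 and 682 in iDOT1L (log2 difference 2.26, SE 0.26, adjusted p = 4.28e-05). DMSO libraries spread widely and stayed far below the iDOT1L libraries. IL6R rose by 0.67 (adjusted p = 0.000795), IL17RA by 0.70 (adjusted p = 0.000696) and IL13RA1 by 0.74 (adjusted p = 0.00202) on the log2 scale. Without iDOT1L replicate 1 or 3, 5 of the 35 receptors were called higher, and without iDOT1L replicate 1, 3 were called lower. With the block 11 were higher and 5 lower, where 5.69% and 6.53% of all genes tested were.

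Surface antigens studied as targets in leukaemia moved both ways, 3 of 36 up and 3 down (8.33% each, against 3.08% and 3.17% of all genes tested). CD47, a signal against phagocytosis, rose from 2386, 2243, 2132 and 1999 in DMSO to 3661, 3204, 3028 and 2901 in iDOT1L (log2 difference 0.54, SE 0.09, adjusted p = 0.00116). CD244, a receptor of the SLAM family, rose by 0.78 (adjusted p = 0.00397), and CLEC12A is given above. Beside CD38, the adhesion receptors ADGRE5 (-0.95, adjusted p = 0.000353) and ADGRE2 (-0.62, adjusted p = 0.00172) fell. These share 21.7% and 28.7% of their 31-base words with other genes, and their levels are uncertain. With the block 7 of the 36 antigens were lower, where 6.53% of all genes tested were.

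Subunits of the NADPH oxidase, which makes superoxide in phagocytes, did not move together. CYBB, the catalytic chain, had 58.4, 59.6, 123 and 48.5 normalised counts in DMSO and 136, 141, 164 and 122 in iDOT1L (log2 difference 1.04, SE 0.23, adjusted p = 0.00937). The third DMSO library reached the lowest iDOT1L library. NCF1, the p47 subunit, fell from 2942, 1980.2, 3394 and 3051 in DMSO to 1047, 433, 579.9 and 715 in iDOT1L (log2 difference -2.08, SE 0.36, adjusted p = 0.00287), and it shares 49.5% of its 31-base words with other genes, so that its level is uncertain. Among the 29 integrin and adhesion genes 7 fell (24.1%, against 3.17% of all genes tested) and 3 rose (10.3%, against 3.08%). FERMT3, the protein that activates leukocyte integrins, fell by 0.55 (adjusted p = 0.0015) and ITGB1 by 0.40 (adjusted p = 0.00548), while ITGA4 rose by 0.77 (adjusted p = 0.000593) on the log2 scale. Without DMSO replicate 1, 3 or 4 or iDOT1L replicate 2, 3 or 4, between 2 and 4 of the 29 were called lower.

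CD74, the chaperone of class II antigen presentation, rose from 3943, 3113, 3860.2 and 3856 normalised counts in DMSO to 5778, 4668, 5219 and 5867 in iDOT1L (log2 difference 0.54, SE 0.13, adjusted p = 0.013), as 1 of 3 of the 14 class II genes that rose. The genes that rose were 21.4% of the 14, against 3.08% of all genes tested. The summed level of these 14 genes was 10166 to 10769 in DMSO and 11964 to 13559 in iDOT1L. Of the 22 class I presentation genes 0 were called (limma), and 3 had an unadjusted p under 0.05. With the block 3 of the 22 were higher and 1 lower, where 5.69% and 6.53% of all genes tested were. Without DMSO replicate 3 or iDOT1L replicate 1, 1 was higher.

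Of 36 transcription factors of the myeloid lineage 6 rose (16.7%, against 3.08% of all genes tested), 2 fell (5.56%, against 3.17%) and 28 were not called, with a median log2 difference of 0.09. SPI1, or PU.1, the central factor of the lineage, had 2839.6, 2735, 3225 and 3040.0 normalised counts in DMSO and 2954, 3091, 3134 and 3299 in iDOT1L (log2 difference 0.08, SE 0.08, adjusted p = 0.685). CEBPA (-0.12, adjusted p = 0.405, 39.8% shared words), CEBPB (-0.12, adjusted p = 0.788) and IRF8 (-0.18, adjusted p = 0.268) were not called either. CEBPE, the factor of late granulocyte maturation, had 0, 0, 4.48 and 2.0 in DMSO and 18.3, 7.58, 17.2 and 8.33 in iDOT1L (adjusted p = 0.00423). It was low in all libraries, and the groups did not overlap.

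CEBPD, a factor induced in maturing myeloid cells, rose from 529, 548, 561 and 611 normalised counts in DMSO to 961, 1017, 1076 and 1150.4 in iDOT1L (log2 difference 0.90, SE 0.10, adjusted p = 1.51e-05). KLF4, a factor of monocyte maturation, had 178, 142, 189 and 189 in DMSO and 318, 291, 333 and 261 in iDOT1L (log2 difference 0.78, SE 0.15, adjusted p = 0.00236). Both rose in every library. Of the 36 factors 1 fell without DMSO replicate 1, 3 or 4 or iDOT1L replicate 2, 3 or 4, and likewise 1 with all libraries and median centring. TFEC, a macrophage factor, rose by 0.75 (adjusted p = 0.000543). ID1, an inhibitor of helix-loop-helix factors, fell from 31.3, 46.1, 51.7 and 44.0 in DMSO to 17.0, 13.8, 8.07 and 15.5 in iDOT1L (log2 difference -1.63, SE 0.27, adjusted p = 0.000698). Of 23 factors and markers of stem cells, erythroid cells and megakaryocytes 0 were called (limma) and 2 had an unadjusted p under 0.05, and with the block KIT was called. Of the 23, 1 was called higher without DMSO replicate 1.

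Immediate early genes are those that cells transcribe within minutes of a growth signal. Of 22 such genes 8 fell (36.4%, against 3.17% of all genes tested), 1 rose and 13 were not called, with a median log2 difference of -0.65. With the block 13 fell and 2 rose, where 6.53% and 5.69% of all genes tested did. Beside EGR1, the nuclear receptor NR4A1 fell from 232, 198, 264 and 231 normalised counts in DMSO to 76.9, 77.7, 68.4 and 68.5 in iDOT1L (log2 difference -1.65, SE 0.21, adjusted p = 5.29e-05). JUNB, an AP-1 subunit, fell from 2710.5, 2483, 3248 and 2699 in DMSO to 1863, 1641, 1877 and 1647 in iDOT1L (log2 difference -0.66, SE 0.10, adjusted p = 0.000385). IER2 fell by 0.67 on the log2 scale (adjusted p = 0.00167), with 28.9% of its 31-base words in other genes. JUN, another AP-1 subunit, went the other way, from 118, 42.9, 84.9 and 82.9 in DMSO to 379.8, 266, 283 and 323 in iDOT1L (log2 difference 1.99, SE 0.28, adjusted p = 0.000224). Its lowest iDOT1L library stood well above the highest DMSO library.

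Of 29 feedback genes of the RAS and MAP kinase pathway, 2 fell (6.90%, against 3.17% of all genes tested). DUSP7, a phosphatase of ERK, fell from 3483, 2466, 3364 and 3347 normalised counts in DMSO to 1960.4, 1643, 1663 and 1859 in iDOT1L (log2 difference -0.82, SE 0.11, adjusted p = 0.000161), and CCND1, cyclin D1, from 219, 146, 159.6 and 111 in DMSO to 77.6, 79.6, 61.4 and 50.1 in iDOT1L (log2 difference -1.21, SE 0.25, adjusted p = 0.00571). With the block 5 fell and 2 rose, where 6.53% and 5.69% of all genes tested did. Without iDOT1L replicate 4, 1 rose. Among 28 signalling kinases and phosphatases of myeloid cells 2 rose (7.14%, against 3.08% of all genes tested) and 5 fell (17.9%, against 3.17%). FYN, a kinase of the Src family, rose from 62.5, 90.7, 119 and 55.0 in DMSO to 336, 382, 381 and 369 in iDOT1L (log2 difference 2.22, SE 0.23, adjusted p = 1.15e-05), and its iDOT1L libraries lay within a narrow range. TEC fell by 0.87 (adjusted p = 0.000254), FES by 0.67 (adjusted p = 0.000307), the lipid phosphatase INPP5D by 0.64 (adjusted p = 0.00191) and YES1 by 0.56 (adjusted p = 0.00293). PRKCD rose by 0.35 (adjusted p = 0.00756).

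Of 49 interferon-stimulated genes 10 fell (20.4%, against 3.17% of all genes tested) and 2 rose (4.08%, against 3.08%). The median log2 difference was -0.20. IFIT2, an antiviral RNA-binding protein, had 93.9, 55.1, 170.1 and 66.7 normalised counts in DMSO and 32.7, 21.5, 10.9 and 15.4 in iDOT1L (log2 difference -2.18, SE 0.44, adjusted p = 0.00426). The third library was the highest in DMSO and the lowest in iDOT1L. OAS3, which senses double-stranded RNA, had 95.6, 117, 50.8 and 69.7 in DMSO and 29.3, 45.2, 12.9 and 21.0 in iDOT1L (log2 difference -1.65, SE 0.30, adjusted p = 0.00179). IFIT3, next to IFIT2 on chromosome 10, fell by 1.41 on the log2 scale (adjusted p = 0.00798), and IRF1 by 0.68 (adjusted p = 0.00106) with 28.5% shared words. Without DMSO replicate 3 or 4 or iDOT1L replicate 3, 5 of the 49 were called lower, and without iDOT1L replicate 2, 6. Leaving out any of the 8 libraries left 0 or 1 called higher.

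Genes of DNA replication and mitosis were called no more often than all genes tested. Of 38 DNA replication genes 0 were called (limma) and 1 had an unadjusted p under 0.05. With the block 2 were lower and 1 higher, where 6.53% and 5.69% of all genes tested were. Of 37 mitosis genes 1 fell (2.70%, near the 3.17% of all genes tested). It was BUB3, a spindle checkpoint protein (-0.35, adjusted p = 0.00627). Of 27 cyclins, cyclin-dependent kinases and their inhibitors 5 fell (18.5%, against 3.17% of all genes tested). CCNA1 alone rose (3.70%, near the 3.08% of all genes tested). CDKN1A, the inhibitor p21 that p53 induces, fell from 4781, 4673, 5449 and 5315 normalised counts in DMSO to 3864, 3021, 3362 and 3605 in iDOT1L (log2 difference -0.55, SE 0.09, adjusted p = 0.000564). CCND2, cyclin D2, fell from 2407, 2258, 2219 and 2329 in DMSO to 1549.7, 1632, 1764 and 1760.5 in iDOT1L (log2 difference -0.46, SE 0.09, adjusted p = 0.00236). CDKN1B, the inhibitor p27, fell by 0.37 (adjusted p = 0.0412), and the call was lost without DMSO replicate 1, 3 or 4 or iDOT1L replicate 2, 3 or 4 (adjusted p 0.0879 to 0.116). Without DMSO replicate 1, 3 or 4 or iDOT1L replicate 3 or 4, 3 of the 27 were called lower, and without DMSO replicate 2, 2 were called higher.

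In the BCL2 family of apoptosis regulators 3 of 19 genes fell, the survival genes BCL2A1 and MCL1 and the death-promoting gene BCL2L11 (-0.38, adjusted p = 0.0484, lost without DMSO replicate 1, 2, 3 or 4 or iDOT1L replicate 1, 3 or 4 (adjusted p 0.0701 to 0.145)). BCL2A1, a survival protein of leukocytes, fell from 112, 91.9, 105 and 126 normalised counts in DMSO to 46.2, 23.6, 42.5 and 31.1 in iDOT1L (log2 difference -1.61, SE 0.27, adjusted p = 0.000795). MCL1, on which many myeloid leukaemia cells depend, fell from 7420.0, 6916, 7054 and 7290.3 in DMSO to 6051, 5272, 5420.1 and 5369 in iDOT1L (log2 difference -0.38, SE 0.08, adjusted p = 0.00407). The 3 genes that fell were 15.8% of the family, against 3.17% of all genes tested. With the block 6 members were lower and 1 was higher, where 6.53% and 5.69% of all genes tested were. Of 27 genes that p53 induces 1 passed in each direction (3.70%, against 3.08% and 3.17% of all genes tested). CDKN1A fell and RRM2B, a ribonucleotide reductase subunit, rose by 0.52 on the log2 scale (adjusted p = 0.000609). With the block 6 fell and 4 rose, where 6.53% and 5.69% of all genes tested did. Without DMSO replicate 2, 2 rose, and without iDOT1L replicate 1, 2 fell.

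Some genes of lipid and sugar metabolism fell. Of 25 cholesterol synthesis genes 4 fell without the block, where 3.17% of all genes tested were lower. With the block 18 of the 25 fell, where 6.53% of all genes tested were lower. The block rests on a pairing that was not shown for replicates 3 and 4. The calls were all in one direction. The median log2 difference was -0.34, and 2 of the 25 genes lay above 0. DHCR7, the last enzyme of the pathway, fell from 2837, 2523, 2712 and 2909 normalised counts in DMSO to 1906, 1449, 1574 and 1694 in iDOT1L (log2 difference -0.73, SE 0.11, adjusted p = 0.000232). Without iDOT1L replicate 1, 7 of the 25 fell.

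Of 22 fatty acid synthesis genes 5 fell (22.7%, against 3.17% of all genes tested), and 1 of the 22 lay above 0. With the block 9 fell, where 6.53% of all genes tested were lower. SCD, the desaturase that makes oleate, fell from 63154, 46412, 55416 and 57276 in DMSO to 40454, 22485, 29765 and 30771 in iDOT1L (log2 difference -0.87, SE 0.17, adjusted p = 0.00346), and ME1, a source of NADPH, from 309, 350.1, 317 and 376 in DMSO to 200.5, 122, 132 and 161 in iDOT1L (log2 difference -1.15, SE 0.15, adjusted p = 8.47e-05). Of 24 glycolysis genes 5 fell (20.8%, against 3.17% of all genes tested), or 15 with the block, which also called 1 higher. LDHA, lactate dehydrogenase, had 33987, 34121, 33328 and 34518 in DMSO and 26438, 20791, 22637 and 24296 in iDOT1L (log2 difference -0.54, SE 0.10, adjusted p = 0.00196). ENO1 fell by 0.39 (adjusted p = 0.000471) and the lactate exporter SLC16A3 by 0.59 (adjusted p = 0.00141). Without DMSO replicate 1 or iDOT1L replicate 3, 3 and 2 fatty acid genes fell. Glycolysis calls numbered 3 without DMSO replicate 1, 3 or 4 or iDOT1L replicate 2 or 3, and 8 without iDOT1L replicate 1.

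Of 32 genes of the unfolded protein and amino acid responses 6 fell (18.8%, against 3.17% of all genes tested), 1 rose and 25 were not called. With the block 13 fell, where 6.53% of all genes tested were lower. XBP1, a transcription factor of the unfolded protein response, fell from 8568, 8945, 9195 and 8887 normalised counts in DMSO to 3714, 3926, 3801 and 4012 in iDOT1L (log2 difference -1.20, SE 0.14, adjusted p = 2.03e-05), with both groups tightly spaced. TRIB3, a target of the amino acid response, fell by 0.50 on the log2 scale (adjusted p = 0.00625), and ATF5 by 0.89 (adjusted p = 0.000287) with 20.6% shared words. SLC7A11, the cystine importer, rose from 351, 689, 359 and 325 in DMSO to 1231, 1594, 1401 and 992 in iDOT1L (log2 difference 1.65, SE 0.23, adjusted p = 0.000286). Its second library was the highest in both groups.

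In normalised counts, which also grow with transcript length, the largest falls were those of ACTG1, ACTB, SCD, DDIT4 and PTMA. The actin gene ACTB fell from 109258, 104183, 106099 and 104146 in DMSO to 84585, 80917, 76773 and 82158 in iDOT1L (log2 difference -0.39, SE 0.07, adjusted p = 0.00193). ACTG1 fell by 0.50 on the log2 scale (adjusted p = 0.017) with overlapping groups, a call lost without DMSO replicate 1 or iDOT1L replicate 2, 3 or 4 (adjusted p 0.0563 to 0.0664). DDIT4, an inhibitor of mTORC1, fell by 1.31 (adjusted p = 0.02), a call lost without DMSO replicate 1 or 4 or iDOT1L replicate 2 or 3 (adjusted p 0.056 to 0.0613). PTMA fell by 0.41 (adjusted p = 0.00506). The words that DDIT4 and PTMA share with other genes were 38.3% and 25.1%. The largest rises in normalised counts were those of TSPOAP1, LYZ, CORO1A, CES1 and an Ensembl ID without a symbol in the annotation used. TSPOAP1, which lies next to MPO on chromosome 17, rose from 3249, 4401, 4670.2 and 4642 in DMSO to 6364, 14006, 14183 and 12537 in iDOT1L (log2 difference 1.42, SE 0.31, adjusted p = 0.0128). Its first library was the lowest in both groups. CORO1A, an actin-binding protein of leukocytes, rose by 0.58 (adjusted p = 0.00407), and CES1, a carboxylesterase of monocytes with 36.7% shared words, by 0.53 (adjusted p = 0.00122).

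Of 42 lysosome genes 4 rose (9.52%, against 3.08% of all genes tested), with FUCA1, a fucosidase, higher by 0.46 (adjusted p = 0.0108). With the block 9 rose and 2 fell, where 5.69% and 6.53% of all genes tested did. Of 32 Polycomb genes 3 rose (9.4%) and 1 fell (3.1%, near the 3.17% of all genes tested). Among them CBX6, a reader of lysine 27 methylation, rose by 0.57 (adjusted p = 0.000697). Without DMSO replicate 2 or iDOT1L replicate 3 or 4, 1 of the 32 rose. Without DMSO replicate 1, 2 or 4 or iDOT1L replicate 2, 3 or 4, none of the 32 passed as lower, and without iDOT1L replicate 1, 2 fell. With the block 4 rose and 4 fell, where 5.69% and 6.53% of all genes tested did. Of 42 developmental regulators 6 fell (14.3%, against 3.17% of all genes tested) and 2 rose (4.76%, against 3.08%). HOXB9 fell from 34.7, 38.5, 41.3 and 36.0 normalised counts in DMSO to 16.3, 8.52, 11.8 and 10.4 in iDOT1L (log2 difference -1.63, SE 0.28, adjusted p = 0.000924), and OLIG2, a factor of oligodendrocytes, rose from 4.43, 8.99, 14.4 and 14.3 in DMSO to 49.97, 39.9, 59.5 and 45.7 in iDOT1L (log2 difference 2.21, SE 0.36, adjusted p = 0.000597). Of 15 genes of the S100 family 0 were called (limma) and 2 had an unadjusted p under 0.05. With the block 3 were higher, where 5.69% of all genes tested were.

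Markers of other cell types were counted as well. Of 11 erythroid and mast cell markers 0 were called (limma), with or without the block, and 0 had an unadjusted p under 0.05. Their summed level was 50.6 to 106.1 normalised counts in DMSO and 64.7 to 79.4 in iDOT1L. Of 22 lymphoid markers 3 rose (13.6%, against 3.08% of all genes tested), IL7R, CD79A and EBF1. PAX5, a B cell factor, fell (-0.71, adjusted p = 0.0383), a call lost without DMSO replicate 1, 2 or 4 or iDOT1L replicate 2, 3 or 4 (adjusted p 0.0512 to 0.12). The summed level of the 22 was lower in iDOT1L between libraries of the same number, at 7911 against 8285, 6241 against 7437, 6993 against 7595 and 6986 against 7636. This pairing was not shown for replicates 3 and 4. EBF1, a B cell factor, had 0, 3.49, 1.74 and 3.89 in DMSO and 15.6, 7.64, 29.5 and 19.96 in iDOT1L (adjusted p = 0.00542). CD79A, a chain of the B cell receptor, rose by 1.13 (adjusted p = 0.0135), a call lost without iDOT1L replicate 3 (adjusted p = 0.0522). Of 19 fibroblast and epithelial markers 1 rose, the collagen-binding proteoglycan gene LUM, with 0, 3.13, 0 and 1.81 in DMSO and 6.18, 9.2, 7.09 and 4.44 in iDOT1L normalised counts, and 1 fell, the keratin gene KRT18 (-0.74, adjusted p = 0.000335, 35.0% shared words). The call in each direction was 5.26% of the 19, against 3.08% and 3.17% of all genes tested. Of the 19, 2 rose without DMSO replicate 1. The LUM call was lost on the deposited log2 values (adjusted p = 0.0527).

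**Figure D4:**
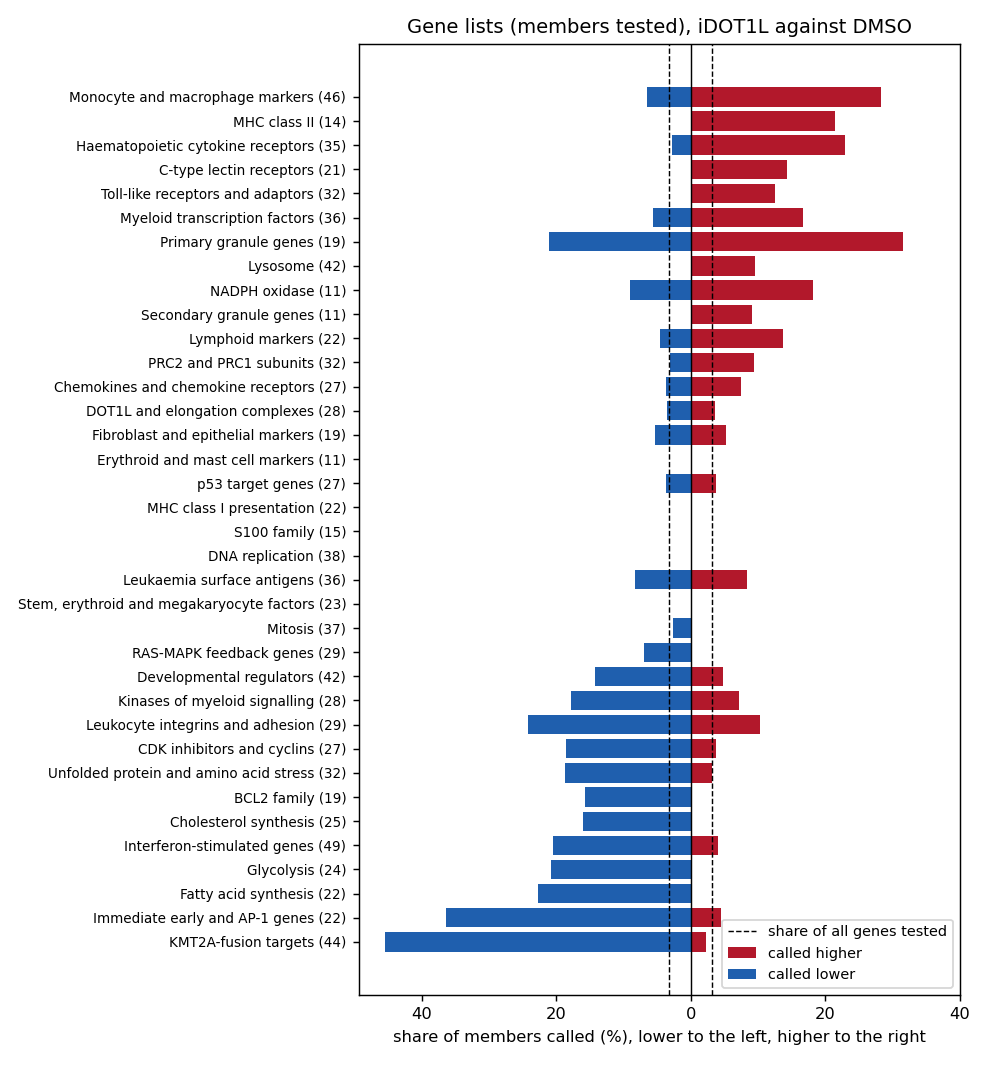
Share of the tested members of 36 gene lists that were called higher (red, to the right) or lower (blue, to the left) in iDOT1L than in DMSO, with the number of members tested in brackets and the shares over all genes tested, 3.08% and 3.17%, as broken lines. KMT2A-fusion targets and immediate early genes have the longest bars to the left, and primary granule genes and monocyte markers the longest to the right.

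The action of the DOT1L inhibitor was read a second time in the other 8 libraries of the series. Only the log2 differences and their signs come from these 8 libraries alone. The p-values of both comparisons share 1 estimate of the spread from all 16 libraries. A gene called in the first for its small spread is therefore more easily called here, and the shares called the same way are not independent. Combo against iEZH2 compares cells with and without EPZ5676 when all of them receive GSK126, and in it 465 genes (2.08% of those tested) were higher and 385 (1.72%) lower, 3.81% in all. The total of 850 fell to 550, 493 and 532 without iEZH2 replicate 1, iEZH2 replicate 3 and Combo replicate 3, rose to 1349 without iEZH2 replicate 4, and was 511 when only these 2 groups were fitted. Of the 687 genes that rose in iDOT1L, 669 (97.4%) were above 0 in Combo against iEZH2, where 49.9% of all genes tested were above 0. Of these 687, 344 (50.1%) were called higher there, and 1 was called lower. Of the 709 genes that fell, 683 (96.3%) were below 0 and 281 (39.6%) were called lower, and 0 were called higher (limma). Looked at from the other side, 74.0% of the genes called higher in Combo against iEZH2 and 73.0% of those called lower were called the same way in iDOT1L against DMSO. The median log2 difference in the second comparison was 0.57 for the genes that rose in the first and -0.43 for those that fell.

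**Figure D5:**
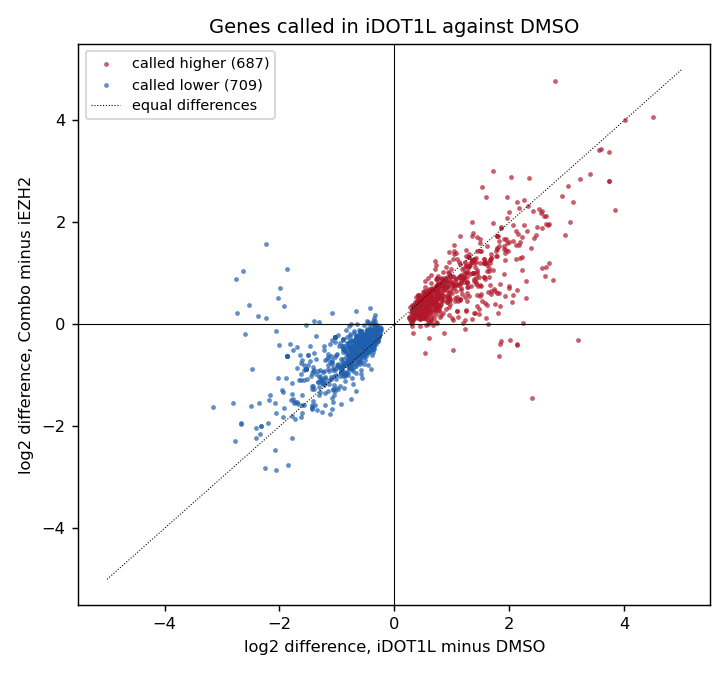
Log2 difference of Combo minus iEZH2 (vertical axis) against that of iDOT1L minus DMSO (horizontal axis) for the 687 genes that rose and the 709 that fell in iDOT1L against DMSO, with a dotted line of equal differences. Of the genes that rose, 669 lie above 0 on the vertical axis, and of those that fell, 683 lie below it.

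Named genes were read in the second comparison too. MPO was higher by 2.19 (SE 0.23, adjusted p = 4.66e-05), LYZ by 1.91 (SE 0.22, adjusted p = 0.000104) and CLEC12A by 2.95 (SE 0.43, adjusted p = 0.000432) on the log2 scale. MEIS1 (-1.01, adjusted p = 0.000159), PBX3 (-0.94, adjusted p = 0.000534) and MEF2C (-1.35, adjusted p = 0.000166) fell there as well. ITGAM (-1.01, adjusted p = 0.126), AZU1 (-0.18, adjusted p = 0.343) and NR4A1 (-0.59, adjusted p = 0.14) were not called. EGR1 fell by 1.63 (SE 0.41, adjusted p = 0.0295), and its log2 difference in cells without GSK126 was -3.16.

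Whether the effect of EPZ5676 differed with and without GSK126 was tested gene by gene as a difference of the 2 differences. Of 22331 genes 0 passed (limma, lowest adjusted p = 0.0895), and 848 genes, 3.80% of those tested, had an unadjusted p under 0.05. Without DMSO replicate 3 or 4 or iEZH2 replicate 4, 1 gene passed. Among the 848 were 100 of the 687 genes that rose and 106 of the 709 that fell. Those genes were chosen on iDOT1L minus DMSO, which is itself part of the tested difference. Their number among the 848 is therefore partly fixed by the choice and does not show a different response with GSK126. For EGR1 the difference was 1.53 (SE 0.58, adjusted p = 1.0) and for CCR2 -1.03 (SE 0.35, adjusted p = 1.0). The gene called in opposite directions was TRIM26, named here because its values stood out, with log2 differences of 0.53 (adjusted p = 0.0412) and -0.55 (adjusted p = 0.046). Its difference of the differences was -1.09 (SE 0.21, adjusted p = 0.276). These p values do not show that the 2 effects were equal.

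Against cells given the EZH2 inhibitor alone, iDOT1L libraries were higher in 866 genes (3.88%) and lower in 684 (3.06%), 6.94% in all. With the block the numbers were 1641 (7.35%) and 1544 (6.91%), and the total of 1550 became 964 without iEZH2 replicate 3 and 1004 when only these 2 groups were fitted. This comparison uses the same iDOT1L libraries as the one against DMSO. MPO was 2.13 (adjusted p = 3.21e-05) and CCR2 2.14 (adjusted p = 3.86e-05) higher on the log2 scale in iDOT1L than in iEZH2. PBX3 (-1.17, adjusted p = 3.86e-05) and DACH1 (-1.52, adjusted p = 3.29e-06) were lower.

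Called genes often lay beside genes called the same way. Of 654 genes that rose and have a position in the annotation, 76 (11.6%) had a nearest tested neighbour that also rose, against 2.99% of all tested genes. Of 652 that fell, 84 (12.9%) had a nearest neighbour that fell, against 3.00%. In 2 and 6 cases the neighbour had gone the other way. Among those pairs 32 and 23 overlapped in their genomic spans, introns included. No source used here says that strand was used in counting, so reads from sequence that 2 overlapping transcripts share may not be told apart.

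On GRCh38, 22 runs of at least 3 adjacent tested genes moved in one direction. At chr7:27106184-27152581 HOXA3, HOXA4 and HOXA5 fell, and at chr7:27170591-27200106 HOXA10, HOXA11 and HOXA13. At chr10:21492658-21743630 CASC10, the KMT2A-fusion target SKIDA1 and MLLT10 fell, by 1.74, 0.92 and 0.32 on the log2 scale. CASC10 had 836, 724, 937 and 883 normalised counts in DMSO and 314, 219, 208 and 277 in iDOT1L (adjusted p = 6.98e-06). SKIDA1 had 1559.6, 1133, 1212 and 1085 in DMSO and 831, 574, 585 and 646 in iDOT1L (adjusted p = 0.00191). At chr10:89283694-89406486 IFIT2, IFIT3 and IFIT1 fell, the last call being lost without DMSO replicate 3 (adjusted p = 0.0502).

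Runs that rose lay elsewhere. At chr12:9951316-10018619 they were the lectin receptors CLEC12A, CLEC1B and CLEC12B. At chr11:60172014-60317944 the membrane protein genes MS4A6A, MS4A4A and MS4A4E rose by 1.17, 0.93 and 1.21. At chr18:63871692-64019779 the serpins SERPINB2, SERPINB10 and SERPINB8 rose. SERPINB2, an inhibitor of plasminogen activators, had 0, 0, 3.24 and 0 normalised counts in DMSO and 23.1, 25.6, 19.3 and 21.1 in iDOT1L (adjusted p = 0.00179). SERPINB10 had 1.04, 2.12, 4.3 and 2.88 in DMSO and 33.3, 44.6, 42.0 and 36.1 in iDOT1L (adjusted p = 7.43e-06, 20.7% shared words), and SERPINB8 had 733, 799, 637 and 815 in DMSO and 1118, 1175, 1196 and 1175 in iDOT1L (adjusted p = 0.00272). At chr1:175067858-175743770 the tenascins TNN (0.83) and TNR (1.60) and KIAA0040 between them (1.25) rose. At chr7:36512949-37833788 AOAH, which detoxifies lipopolysaccharide, ELMO1 and GPR141 rose by 1.37, 0.47 and 3.60.

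Genes that rose had promoters poorer in CpG dinucleotides than genes that fell. The 250 bases before the RefSeq start (GRCh38.p14) were read for 461 of the 613 protein-coding genes that rose (3.66% of those tested) and 486 of the 625 that fell (3.73%). A ratio of observed to expected CpG under 0.5 was found in 31.2% of the former and 18.3% of the latter, and in 23.2% of all 12785 tested protein-coding genes with a promoter. Among genes changed at least 2-fold the shares were 48.1% and 36.3%. The ratio also goes with level. At mean levels under 100 normalised counts 47.3% of genes that rose, 42.3% of those that fell and 45.8% of genes not called were under 0.5. Between 100 and 1000 the shares were 28.6% for genes that rose, 17.7% for those that fell and 12.6% for those not called, and from 1000 upward 18.5%, 13.4% and 7.73%. Genes that rose spanned a median of 47.3 kb of the genome, those that fell 32.9 kb and those not called 31.02 kb.

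Promoters of 2 genes that rose, with few CpG, and of 3 KMT2A-fusion targets that fell, with more, are shown as single examples. They are the 250 bases before the RefSeq start on the strand of the gene, from 5′ to 3′, with each CpG in capitals. The examples were picked after their values were seen.
CLEC12A, chr12:9971159-9971408, plus strand: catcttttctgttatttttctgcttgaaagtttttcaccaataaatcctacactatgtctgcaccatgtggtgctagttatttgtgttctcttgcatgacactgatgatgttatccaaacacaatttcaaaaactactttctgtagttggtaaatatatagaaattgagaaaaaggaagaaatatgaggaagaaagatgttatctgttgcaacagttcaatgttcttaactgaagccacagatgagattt
GAPT, chr5:58491185-58491434, plus strand: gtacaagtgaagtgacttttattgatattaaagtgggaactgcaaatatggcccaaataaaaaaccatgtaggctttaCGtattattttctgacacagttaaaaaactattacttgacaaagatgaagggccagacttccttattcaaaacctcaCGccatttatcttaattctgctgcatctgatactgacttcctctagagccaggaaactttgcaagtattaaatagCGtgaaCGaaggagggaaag
MEIS1, chr2:66434875-66435124, plus strand: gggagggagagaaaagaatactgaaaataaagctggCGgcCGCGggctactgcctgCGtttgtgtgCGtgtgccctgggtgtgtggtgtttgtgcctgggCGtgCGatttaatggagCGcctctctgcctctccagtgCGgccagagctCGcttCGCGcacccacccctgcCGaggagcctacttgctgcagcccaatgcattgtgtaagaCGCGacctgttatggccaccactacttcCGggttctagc
DACH1, chr13:71867205-71867454, minus strand: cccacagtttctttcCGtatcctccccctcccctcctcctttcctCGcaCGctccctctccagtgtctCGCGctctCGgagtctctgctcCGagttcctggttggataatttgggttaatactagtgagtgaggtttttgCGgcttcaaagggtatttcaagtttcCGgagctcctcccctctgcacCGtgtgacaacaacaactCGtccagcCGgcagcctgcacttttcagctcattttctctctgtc
SKIDA1, chr10:21525683-21525932, minus strand: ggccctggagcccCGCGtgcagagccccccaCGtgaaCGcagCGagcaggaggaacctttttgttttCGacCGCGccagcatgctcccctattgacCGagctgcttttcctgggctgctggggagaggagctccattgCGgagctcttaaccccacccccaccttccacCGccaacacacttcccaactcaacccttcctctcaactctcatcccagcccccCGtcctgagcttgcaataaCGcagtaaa

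The CLEC12A window holds no CpG and the GAPT window 4, with a ratio of 0.47. The windows of MEIS1, DACH1 and SKIDA1 hold 16, 12 and 13, with ratios of 0.72, 0.71 and 0.61. These lie under the median ratio of all tested protein-coding genes (0.76) and of genes that fell (0.78). Genes that rose had a median of 0.69, above SKIDA1, so the examples do not stand for the 2 groups. CLEC12A and GAPT had log2 differences of 3.40 and 2.48, and MEIS1, DACH1 and SKIDA1 of -0.86, -1.77 and -0.92.

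EGR1, the called gene of the early response list with the largest fall, carries CArG boxes, the motif that serum response factor binds. They are shown in capitals in the 250 bases before its start, where 2 lie 105 and 83 bases upstream counted from the box's first base.
EGR1, chr5:138465229-138465478, plus strand: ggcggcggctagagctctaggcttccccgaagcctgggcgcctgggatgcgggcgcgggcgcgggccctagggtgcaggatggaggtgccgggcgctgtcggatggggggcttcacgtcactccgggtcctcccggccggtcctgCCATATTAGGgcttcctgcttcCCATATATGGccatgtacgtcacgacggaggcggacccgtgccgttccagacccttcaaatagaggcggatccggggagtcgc

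A match to the CArG pattern on 1 strand is also a match on the other. Of 13 immediate early genes with a single RefSeq start 1, EGR1, had a box in its window. The share was 1.16% over all 35116 promoter windows, which include those of genes with several starts. Over 9143 tested protein-coding genes with a single start it was 0.95%. Other motifs were searched on both strands in genes with a single start. The core GAGGAA, which PU.1 and related factors bind, was found in 24.8% of genes that rose, 22.9% of those that fell and 22.8% of those not called. TATAAA was found in 7.74%, 6.67% and 6.90%, CCAAT in 35.5%, 34.9% and 35.6%, and the AP-1 element TGANTCA in 4.52%, 4.13% and 4.56%. These shares lay close together, and a match is a description of the letters only.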

How the data were processed

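Total RNA of Molm14 cells was extracted with an RNeasy kit and sequenced as paired-end reads, per the labels. The submitters' processing notes name kallisto, DESeq2 and the hg38 build, without versions, which the sources used here do not give. The extraction text gives RNA isolation 3 days after a sort, and the design text 7 days of treatment with no sort. The latter was followed, and the difference was not settled. The deposited table holds log2 values for 22445 Ensembl gene IDs in 16 libraries, which the authors had scaled between libraries and variance-stabilised. This was read from the values, which have the same lowest value, 6.28106, in each of the 16 libraries. The transformation was inverted to normalised counts, with the lowest value taken as a count of 0. Symbols, gene types and GRCh38 positions came from GENCODE v29, which held 20784 of the IDs, and 1661 were kept by ID.

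With limma 3.58.1 in R 4.3.3, log2(normalised count + 1) was fitted for every gene that exceeded 1 normalised count in 4 or more libraries. The fit had 4 group means over all 16 libraries, with trend and robust moderation (12 residual and a median of 6.8 prior degrees of freedom). Log2 differences understate the change of genes with few reads. P-values were Benjamini-Hochberg adjusted over all genes tested in each comparison. The fitting step was tested on simulated data. Between-library Pearson correlations were 0.982 to 0.996, and no 2 libraries held identical values.

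Deviations from the group means, over 12270 genes with a mean of at least 50, correlated between same-numbered iDOT1L and DMSO libraries at 0.500, 0.465, 0.109 and 0.311. All exceeded 0.1, so the numbers were taken to pair these libraries, although the labels do not say what a number stands for. Replicates 3 and 4 correlated more across numbers, at 0.144 for iDOT1L replicate 3 with DMSO replicate 4. For iDOT1L replicate 4 with DMSO replicate 3 the value was 0.326. The blocked calls therefore rest on a pairing that these values do not show for replicates 3 and 4. Same-numbered iDOT1L and iEZH2 libraries also exceeded 0.1 (0.639, 0.527, 0.113 and 0.284). There too iDOT1L replicates 3 and 4 correlated more with iEZH2 replicates 4 and 3 (0.159 and 0.304). The blocked fit used all 16 libraries.

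Members and gene lists were chosen with earlier results of these data known. Genes named were 28 fixed genes, the 15 largest rises and falls in log2 among called protein-coding genes whose higher group averaged 50 or more and whose libraries were fully separated, the 5 largest rises and falls in normalised count, and up to 4 called members per list and direction with the lowest adjusted p. Of 169 such genes 135 are described. A further 25, among them other HOXA genes and members of runs of neighbours, were chosen after their values were seen. Gene levels were marked uncertain where over 20% of the 31-base words of their transcripts occur in other genes. Promoter sequences are RefSeq's, on GRCh38.p14.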

Additional observations from a re-analysis of the deposited data

Results flagged for a closer look

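For the genes named, each group of 4 libraries was examined for a single library far from the other 3. The gap between that library and its nearest neighbour was divided by the range of the group, and ratios above Dixon's critical value for 4 samples are listed. Of 320 groups 25 exceeded it, and chance alone exceeds it in about 1 in 20 groups. DMSO replicate 2 stood apart most often. It was high for DOT1L (0.858), MPO (0.927, 1078 normalised counts against 781 to 803 in the other 3) and SLC7A11 (0.906, 689 against 325 to 359). It was low for HOXA11 (0.901), CX3CR1 (0.84), CD74 (0.895) and DUSP7 (0.866, 2466 against 3347 to 3483). DMSO replicate 1 was high for TFEC (0.873) and IL17RA (0.835), and DMSO replicate 3 was high for CYBB (0.852) and SERPINB2 (1.0, the other 3 at 0) and low for PTMA (0.838).

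Among treated libraries iDOT1L replicate 1 was high for MEF2C (0.938, 3933 normalised counts against 2414 to 2507), HOXA6 (0.874), ACTG1 (0.9) and IL13RA1 (0.846). The second iDOT1L library was high for CD14 (0.858), CD38 (0.837), CLEC12B (0.894) and ELMO1 (0.88), and low for HOXA4 (0.836) and GPR141 (0.871). The third was high for EGR1 (0.844, 40.8 against 11.5 to 16.1) and NCAM2 (0.839), and the fourth was low for TLR4 (0.845, 224.2 against 282 to 292). MPO, MEF2C, EGR1, TLR4, SLC7A11 and DUSP7 were called with each library left out in turn.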

How the results depend on the processing

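With the replicate number as a block, calls for iDOT1L against DMSO rose from 1396 to 2729 (1270 higher, 1459 lower), and to 3611 (1658 and 1953) when only these 2 groups were fitted with the block. Of the named genes, 6 that had not been called passed with the block (HOXA2, HOXA6, HOXA9, PRTN3, CSF1R and KIT), and it changed no other call among them. For Combo against iEZH2 the block gave 2136 calls (966 and 1170) in place of 850. Same-numbered libraries of that pair correlated at 0.081, 0.481, 0.053 and 0.288, not all above 0.1, so they were not taken as paired. For iDOT1L against iEZH2 the block gave 3185 (1641 and 1544), or 3612 (1830 and 1782) with only these groups, in place of 1550. The difference of the 2 effects had 0 calls with and without the block. Fitting only the groups compared gave 511 calls (287 higher and the rest, about 2.2e+02, lower) for Combo against iEZH2 and 1004, with 408 lower, for iDOT1L against iEZH2. Without trend and robust moderation 1 gene passed for the difference of the 2 effects, and it was higher.

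Leaving out 1 library at a time gave 915 to 1279 calls for iDOT1L against DMSO (466 to 593 higher, 449 to 686 lower), 493 to 1349 for Combo against iEZH2 (266 to 712 and 217 to 637), 964 to 1802 for iDOT1L against iEZH2 (555 to 993 and 409 to 809) and 0 to 1 for the difference (0 to 1 in each direction). The cause of these shifts was not tested. Other pseudocounts, filters, centring and the deposited log2 values left each of these counts over all genes within 1.5 times. Counts within lists are small and moved more: of 72 such counts, 27 moved by over 1.5 times without some library and 19 under some other setting without the block. Of 144 called genes that are named, 124 kept the call in all alternatives and 20 lost it in at least 1, and none turned direction. The size of a log2 difference could move much more. Over the alternatives EGR1 lay between -3.53 and -1.29, GPR141 between 0.84 and 4.06 and CLEC12A between 1.15 and 3.66. MPO, at a higher level, stayed between 2.36 and 2.66. Uncalled genes near 0 turned negative: GFI1 without DMSO replicate 1, 2 or 4 or iDOT1L replicate 2 or 3 (-0.029 to -0.0024, and up to 0.041 over all leave-outs), CD14 without DMSO replicate 2 or 4 (-0.041 to -0.029, up to 0.50) and CD33 without DMSO replicate 1 or iDOT1L replicate 4 (-0.015 to -0.013, up to 0.035). Genes near 0 reads limit what can be said of folds there: 86 of the 687 genes that rose had a DMSO mean under 10 normalised counts, and 47 of the 709 that fell an iDOT1L mean under 10.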

Other observations

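Among the runs of neighbouring genes that fell, 2 on chromosome 15 held members of repeated families. At chr15:22606022-22691158 they were GOLGA8IP (log2 difference -1.09), WHAMMP3 (-0.65) and AC138649.2 (-2.48), and at chr15:30552078-30614561 GOLGA8Q (-1.09), ULK4P2 (-0.89) and GOLGA8H (-0.94). Of the 31-base words in their transcripts, 75.8% for GOLGA8IP, 57.5% for WHAMMP3, 70.1% for AC138649.2, 88.3% for GOLGA8Q, 80.1% for ULK4P2 and 90.9% for GOLGA8H occur in other genes, so their levels are uncertain. One Ensembl ID without a match in the annotation used, ENSG00000224608, rose from 12548, 12196, 13553 and 13587 normalised counts in DMSO to 19307, 17389.8, 18703 and 19597 in iDOT1L (log2 difference 0.53, SE 0.09, adjusted p = 0.000801, limma), with no overlap between the groups.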
